A study of Homo sapiens with 6 samples.

Results

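EDEM1 and 9 partner genes of endoplasmic reticulum-associated degradation (ERAD) were followed probe set by probe set in 786O, a human renal cell carcinoma line long used in culture. The 10 genes are EDEM1, EDEM2, EDEM3, OS9, SEL1L, SYVN1, HERPUD1, DERL1, DERL2 and DERL3. They were read from every probe set annotated with exactly 1 gene symbol that is one of these names, which gave 36 of the 44988 probe sets tested and 10 of 18132 genes. The group was chosen on the measured shPLEKHO1 minus shNC difference of EDEM1, a large fall in these same arrays, so EDEM1 is described here without a test. The partners were taken by role, with earlier results of the same arrays known, so their calls are no independent evidence about the pathway.

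The study delivered short hairpin RNAs (shRNAs) by lentivirus, either a negative control (shNC) or one against PLEKHO1 (shPLEKHO1), and hybridised total RNA to single-colour Affymetrix arrays, 3 per group. Both groups were 786O cells given a lentiviral shRNA, and the share of cells that carried it is not known. Whether the 3 replicates of a group came from different cultures is not in the labels, and the p-values then cover the array-to-array spread alone, possibly a technical one. The labels do not state the time after delivery, whether transduced cells were selected, or how many hairpins against PLEKHO1 were used.

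ERAD removes glycoproteins that fail to fold in the endoplasmic reticulum (ER). EDEM proteins take part in trimming mannose residues from such glycoproteins, and the lectin OS9 reads the trimmed glycan and hands the substrate to the membrane ligase complex of SEL1L and SYVN1 (also called HRD1). Derlins help to move the substrate across the membrane, HERPUD1 helps to organise the complex, and the ATPase VCP pulls the ubiquitinated protein towards the proteasome. Many of these genes are induced in the unfolded protein response (UPR) through the transcription factors XBP1 and ATF6, which bind the ER stress response elements ERSE and ERSE-II.

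The promoters of 4 members are shown because they cover the directions seen on the arrays: EDEM1 and EDEM3, which were lower with shPLEKHO1, DERL2, which was higher, and HERPUD1, which did not pass the test. Each runs 5′ to 3′ on the gene's strand from 250 bases before to 50 bases after the annotated start (RefSeq, GRCh38.p14). Capitals mark CCAAT, the core that NF-Y binds, and CCACG, the other part of the ERSE, on either strand.
EDEM1 promoter, chr3:5187457-5187756, plus strand: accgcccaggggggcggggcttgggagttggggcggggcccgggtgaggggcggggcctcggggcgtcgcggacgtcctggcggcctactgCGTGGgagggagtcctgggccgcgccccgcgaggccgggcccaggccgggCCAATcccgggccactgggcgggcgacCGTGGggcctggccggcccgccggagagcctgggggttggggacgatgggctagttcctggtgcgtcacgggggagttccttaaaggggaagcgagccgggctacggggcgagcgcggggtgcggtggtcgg
EDEM3 promoter, chr1:184754809-184755108, minus strand: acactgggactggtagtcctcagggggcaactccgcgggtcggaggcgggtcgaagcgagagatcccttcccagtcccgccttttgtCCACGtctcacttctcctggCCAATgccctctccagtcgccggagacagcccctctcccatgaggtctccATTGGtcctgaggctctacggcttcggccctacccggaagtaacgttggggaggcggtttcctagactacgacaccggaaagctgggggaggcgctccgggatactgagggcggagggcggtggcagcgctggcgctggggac
DERL2 promoter, chr17:5486129-5486428, minus strand: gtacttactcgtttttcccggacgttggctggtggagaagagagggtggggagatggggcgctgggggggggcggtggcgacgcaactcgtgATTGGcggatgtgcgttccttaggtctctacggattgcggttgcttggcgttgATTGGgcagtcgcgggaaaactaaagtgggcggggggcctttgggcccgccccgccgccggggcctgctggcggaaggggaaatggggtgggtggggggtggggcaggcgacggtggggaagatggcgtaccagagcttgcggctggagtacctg
HERPUD1 promoter, chr16:56931892-56932191, plus strand: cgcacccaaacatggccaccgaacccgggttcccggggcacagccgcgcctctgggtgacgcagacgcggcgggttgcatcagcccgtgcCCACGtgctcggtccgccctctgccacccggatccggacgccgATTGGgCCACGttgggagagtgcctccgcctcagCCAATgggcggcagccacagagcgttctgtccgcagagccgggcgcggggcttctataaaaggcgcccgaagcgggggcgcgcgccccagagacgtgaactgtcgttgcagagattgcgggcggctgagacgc

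Windows of 8 of the 10 members were searched on both strands for 5 motifs. No window of DERL1 or DERL3 was searched, so nothing is said of their promoters. ERSE was spelled as CCAAT, then any 9 bases, then CCACG. ERSE-II was spelled as ATTGG, which reads as CCAAT on the other strand, then any 1 base, then CCACG. The XBP1 element UPRE was spelled as TGACGTGG, and the cores CCAAT and CCACG were counted by themselves. The longer motifs contain these cores on 1 strand or the other, so the matches overlap. The HERPUD1 window held 1 ERSE-II, whose first base lies 117 bases before the start. It was the only exact match to ERSE, ERSE-II or UPRE as spelled here among the 8 windows. Sites that differ from these spellings by a base were not searched for. Of all 35116 promoter windows of this length, 0.0541% held an ERSE-II, 0.0769% an ERSE and 0.729% a UPRE. The EDEM1 window held 1 CCAAT, 109 bases before the start, and 2 CCACG. The EDEM3 window held 2 CCAAT and 1 CCACG, and the DERL2 window 2 CCAAT alone. Of all windows, 34.6% held a CCAAT and 38.1% a CCACG, so these short cores are common. The letters are a description of the windows and show no binding.

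The targeted gene was examined first. PLEKHO1 intensity was 135, 143 and 126 with shNC and 110.3, 116 and 97.4 with shPLEKHO1. All 3 knockdown arrays lay below all 3 control arrays, and the fall was 19.9% (log2 difference of -0.32 ± 0.08 SE, n = 3 per group, limma adjusted p = 0.0124). An exact permutation test, two-sided, gave p = 0.1, and 3 against 3 arrays cannot go lower. Array medians lay between 55.7 and 57.1, and log2 values correlated at 0.998 within a group and at 0.988 to 0.989 between groups, over probe sets.

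Of 10 listed markers of a renal epithelial or carcinoma line, 9 were tested, with mean intensities of 136 to 14741 with shNC. PAX8, PAX2, CDH6 and CAV1 fell, KRT8 and KRT18 rose, and VIM, CDH2 and MET did not pass. These 4 falls and 2 rises stand beside 33.2% of all genes called in either direction. With the dimmest probe sets left out, 48.2% of probe sets were called. The difference of CDH6 was -0.96 ± 0.08. Leukocyte markers (3 tested) and endothelial markers (4) held no call, with summed intensities of 39.7 to 41.4 and 176 to 209 with shNC and of 40.7 to 47.3 and 175 to 190.2 with shPLEKHO1. Of 4 fibroblast markers 1 rose, LUM, from 25.7 to 45.8, and the 4 together summed to 122 to 140 with shNC and 132 to 163 with shPLEKHO1; DCN, COL1A1 and PDGFRA did not pass. For comparison, a background probe set (GC16) read 12.7 to 14.4 over the 6 arrays. Of the 3 controls for 28S ribosomal RNA, the 5′ and middle ones had mean intensities 2.10-fold and 1.68-fold higher with shPLEKHO1, and the 3′ one 1.08-fold. The part of LUM-expressing cells and of ribosomal RNA in the results below was not tested. In such bulk RNA, fewer cells with a transcript and less of it per cell cannot be told apart.

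Below, levels are deposited intensities on a linear scale, and differences are shPLEKHO1 minus shNC in log2(intensity + 1) after quantile normalization, ± SE with n = 3 arrays per group. "Rose" and "fell" mean a limma adjusted p under 0.05, with Benjamini-Hochberg adjustment over all 44988 probe sets. Intensities of different probe sets are not read as relative amounts of RNA; brightness is used only to choose a gene's probe set and to say how near background it lies.

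The 9 partners of EDEM1 moved in both directions. Of their 31 probe sets, 11 rose, 4 fell and 16 did not pass. Over all probe sets tested, 17.3% rose and 15.7% fell, 33.0% in all, and no reading is made from the members' share, since the group was proposed from this contrast. All 4 falls belonged to EDEM3, and the rises to DERL1 (3), DERL2 (1), OS9 (5), EDEM2 (1) and SEL1L (1). Among the EDEM3 falls, that of 11749477_a_at came from values below the GC16 background probe set. SYVN1, HERPUD1 and DERL3 had no probe set that passed. The median difference of the 31 probe sets was 0.05, beside 0.01 over all probe sets. After normalization, the 2 groups of arrays did not overlap in 19 of the 31, beside 44.5% of all probe sets.

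**Figure D1:**
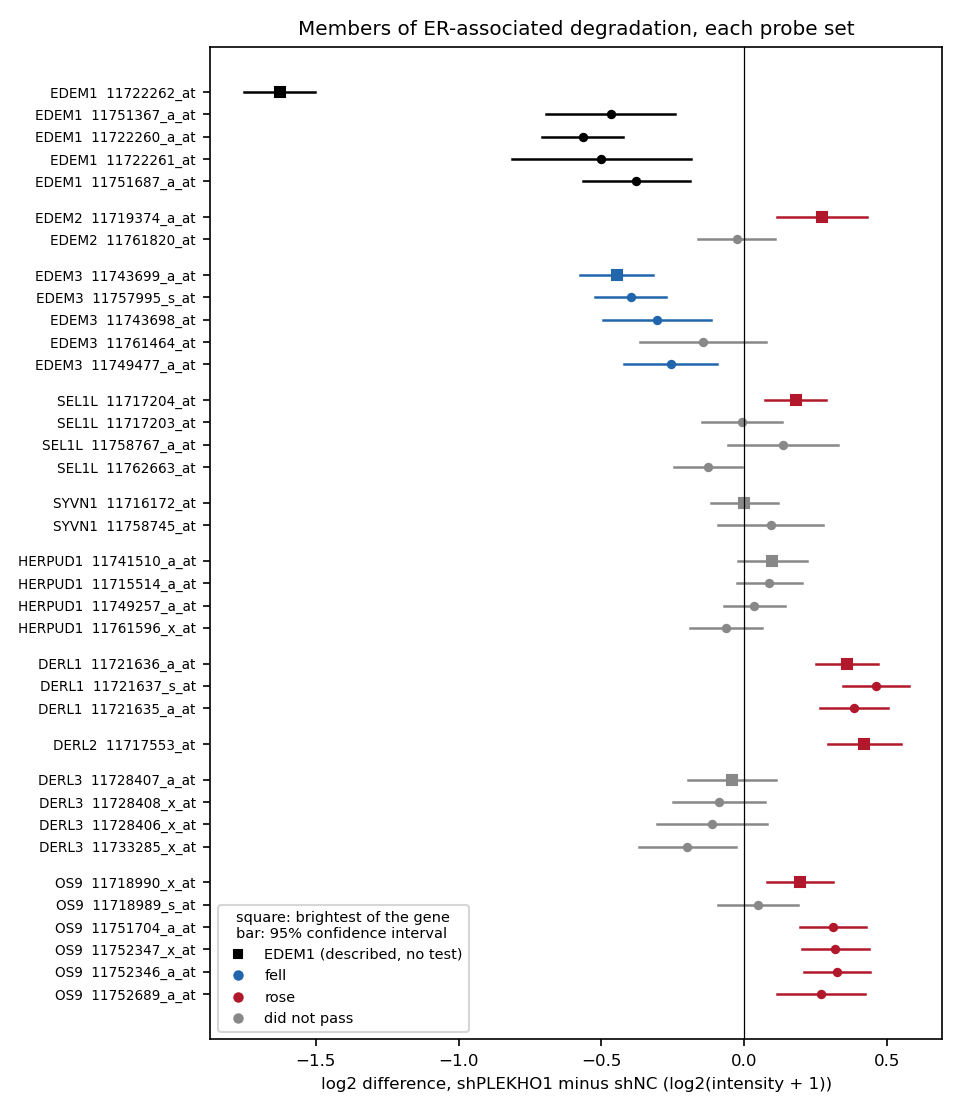
Log2 difference (shPLEKHO1 minus shNC, log2(intensity + 1)) of each of the 36 probe sets of the 10 genes, with bars for the 95% confidence interval (n = 3 arrays per group). All 5 EDEM1 probe sets lie left of 0, from -1.63 to -0.38, EDEM3 lies to the left, and DERL1, DERL2 and OS9 lie to the right. The bars of EDEM1, which led to the choice of the group, are no test.

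EDEM1 carried the largest difference of the group. Its brightest probe set, 11722262_at, read 635, 579 and 608 with shNC and 183, 209 and 194 with shPLEKHO1. The groups were far apart: the highest knockdown array was below the lowest control array by more than the spread within either group. The mean went from 607 ± 28.0 to 195 ± 12.9 (SD, n = 3), a 3.09-fold lower level and a difference of -1.63 ± 0.05 (95% confidence interval from -1.75 to -1.50). Among all genes read by their brightest probe set, 24 had a lower difference than EDEM1. Since EDEM1 was chosen for this fall, the interval and the rank only describe it and are no test.

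The other 4 EDEM1 probe sets were lower too, by less. Probe set 11722260_a_at read 71.9, 71.5 and 77.5 with shNC and 49.99, 52.1 and 45.8 with shPLEKHO1 (-0.57 ± 0.06). Probe set 11751367_a_at read 63.5, 72.3 and 81.1 against 55.0, 54.7 and 45.7 (-0.47 ± 0.10). In neither did the groups overlap, and the spread within the control group was wider for 11751367_a_at. Probe set 11722261_at read 31.3, 26.7 and 37.1 with shNC and 19.2, 23.4 and 23.8 with shPLEKHO1 (-0.50 ± 0.14). Probe set 11751687_a_at read 28.4, 25.0 and 30.4 against 23.0, 20.5 and 20.4 (-0.38 ± 0.08). In both the lowest control array stayed above the highest knockdown array, by a narrow margin. The 5 differences ran from -1.63 to -0.38, and whether they differ from each other was not tested. The brightest was brighter than 83.5% of all probe sets, the other 4 than 32.9% to 51.1%. Remaining background in dim values lowers a log2 difference, and its part in this range was not tested.

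**Figure D2:**
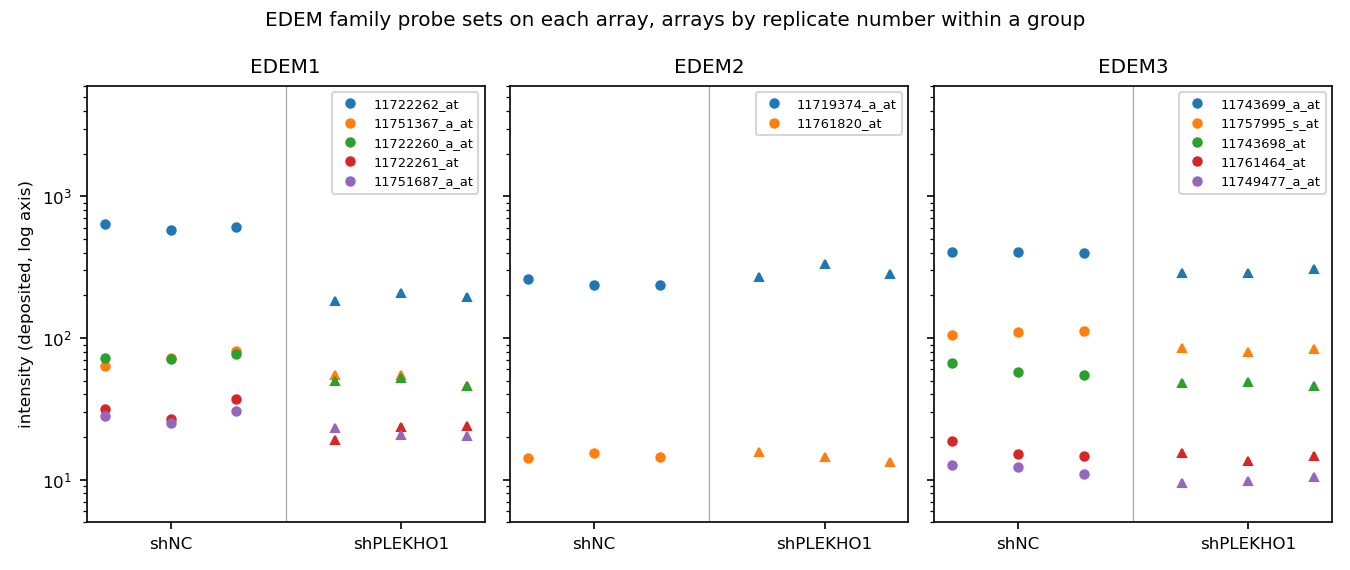
Deposited intensity (log axis) of each EDEM1, EDEM2 and EDEM3 probe set on the 3 shNC arrays (circles) and the 3 shPLEKHO1 arrays (triangles), 1 colour per probe set. The brightest EDEM1 probe set drops from about 607 to 195, EDEM3's from 403 to 294, and EDEM2's moves up from 245 to 295.

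EDEM3, a mannosidase that trims glycans further along the same route, fell as well. Its brightest probe set, 11743699_a_at, read 405, 407 and 398 with shNC and 286, 289 and 307 with shPLEKHO1. The control arrays lay close together and all above the knockdown arrays. The difference was -0.45 ± 0.06 (limma adjusted p = 0.000415), a 1.36-fold lower level. Probe set 11757995_s_at read 106, 111 and 112 against 84.8, 79.8 and 83.5 (-0.40 ± 0.05, limma adjusted p = 0.000641), again without overlap. The third, 11743698_at, went from 66.8, 57.4 and 54.6 to 48.1, 49.1 and 45.7 (-0.30 ± 0.08, limma adjusted p = 0.0218). It did not pass without shPLEKHO1 replicate 1 (limma adjusted p = 0.0573) or without shPLEKHO1 replicate 3 (0.0712).

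The remaining EDEM3 probe sets were near or below background. Probe set 11749477_a_at, with means of 12.02 and 9.97, read below the GC16 background probe set. It fell by 0.26 on the log2 scale (limma adjusted p = 0.0231). It did not pass without shNC replicate 1 (0.0724), shNC replicate 2 (0.0658), shPLEKHO1 replicate 1 (0.0767) or shPLEKHO1 replicate 2 (0.0536). Probe set 11761464_at, with means of 16.2 and 14.6, did not pass (-0.14 ± 0.10, limma adjusted p = 0.316). Without shPLEKHO1 replicate 1, the count of partner probe sets that fell went from 4 to 2, both of EDEM3.

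EDEM2, which is known for the first mannose trimming step, went the other way. Its brighter probe set, 11719374_a_at, read 261, 237 and 238 with shNC and 271, 330.4 and 283 with shPLEKHO1. The groups did not overlap, but shPLEKHO1 replicate 2 stood above the other arrays and shNC replicate 1 lay close to the lowest knockdown array. EDEM2 rose by 0.27 ± 0.07 (limma adjusted p = 0.0155), a 1.21-fold higher level. This call was lost without shNC replicate 2 (limma adjusted p = 0.0502) and without shNC replicate 3 (0.0565). The other EDEM2 probe set, 11761820_at, had means of 14.7 and 14.5, near the background probe set, and a difference of -0.03 ± 0.06.

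The lectin OS9 was higher with shPLEKHO1 in 5 of its 6 probe sets. Probe set 11752346_a_at read 119, 117 and 124 with shNC and 147, 157 and 146 with shPLEKHO1 (0.33 ± 0.05, limma adjusted p = 0.0013). Probe sets 11752347_x_at (0.32 ± 0.05) and 11751704_a_at (0.31 ± 0.05) gave nearly the same size, each without overlap. Probe set 11752689_a_at read 120.3, 106 and 119 against 132, 150.5 and 133 (0.27 ± 0.07, limma adjusted p = 0.015), a call lost without shNC replicate 2 (0.0514). The brightest, 11718990_x_at, read 402, 407 and 405 with shNC and 455, 477 and 456 with shPLEKHO1. It rose by less (0.20 ± 0.05, limma adjusted p = 0.0172) and did not pass without shNC replicate 1 (0.0523) or with the replicate number as a block (0.0526). The sixth, 11718989_s_at, read 339.6, 351 and 347 against 351, 348 and 375, with overlapping groups (0.05 ± 0.06, limma adjusted p = 0.606). By Affymetrix naming, probe sets that end in _x_at or _s_at may also bind other transcripts, and several OS9 probe sets may bind the same RNA. The 6 are therefore not independent measurements, and the same limit holds for the probe sets of every other gene here.

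The derlins differed among themselves. DERL1 rose in all 3 of its probe sets. The brightest, 11721636_a_at, read 850.3, 788 and 812 with shNC and 1041, 1089.8 and 1033 with shPLEKHO1 (0.36 ± 0.05, limma adjusted p = 0.000519), which is 1.28-fold higher. Probe set 11721637_s_at read 774, 749.7 and 718 against 1008, 1041 and 1057 (0.46 ± 0.05, limma adjusted p = 0.000196). Probe set 11721635_a_at read 588, 524 and 570.3 against 719.6, 738 and 739 (0.38 ± 0.05, limma adjusted p = 0.000611). In each of the 3, every knockdown array lay above every control array, and the intervals of the 3 differences overlapped.

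DERL2 had 1 probe set, 11717553_at, which read 615, 602 and 578 with shNC and 767, 862 and 783 with shPLEKHO1. All knockdown arrays were above all control arrays, with shPLEKHO1 replicate 2 the highest. DERL2 rose by 0.42 ± 0.05 (limma adjusted p = 0.000536), which is 1.34-fold higher. None of the 13 alternatives run for DERL1 and DERL2 lost these calls, and the highest limma adjusted p among them was 0.00491. DERL3, a derlin known mainly from secretory tissues, did not pass in any of its 4 probe sets. Its brightest, 11728407_a_at, read 102, 93.9 and 91.2 with shNC and 97.1, 87.1 and 93.7 with shPLEKHO1, with overlapping groups (-0.04 ± 0.07). The other DERL3 differences ran from -0.20 to -0.09, and the dimmest, 11733285_x_at, had the lowest limma adjusted p (0.0759).

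The transcripts of SYVN1 and SEL1L moved little. SYVN1, the ubiquitin ligase, read 225, 229 and 228 with shNC and 226, 224 and 225 with shPLEKHO1 by its brighter probe set, 11716172_at. The groups overlapped, and the 95% confidence interval of the log2 difference ran from -0.12 to 0.12. Its other probe set, 11758745_at, was at 0.09 ± 0.08. SEL1L, the adaptor that holds SYVN1 and its substrates, read 953, 879 and 900.3 with shNC and 1038, 1044 and 1043 with shPLEKHO1 by 11717204_at. The 3 knockdown arrays were almost equal and above the controls (0.18 ± 0.05, limma adjusted p = 0.0182). That call was lost without shNC replicate 2 (limma adjusted p = 0.0607), shNC replicate 3 (0.0564), shPLEKHO1 replicate 1 (0.0571) or shPLEKHO1 replicate 3 (0.0587), and with the replicate number as a block (0.0627). The second SEL1L probe set, 11717203_at, read 185, 181 and 187 against 167, 185 and 190.3 and was at -0.01 ± 0.06. Probe sets 11758767_a_at and 11762663_at read below the GC16 background probe set, with means of 7.41 to 11.04, and did not pass.

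HERPUD1, the gene with the ERSE-II in its window, did not pass in any of 4 probe sets. Its brightest, 11741510_a_at, read 611, 544 and 582 with shNC and 625, 642 and 595 with shPLEKHO1. The deposited values overlapped, since shNC replicate 1 lay above shPLEKHO1 replicate 3 (0.10 ± 0.05, limma adjusted p = 0.2, confidence interval from -0.02 to 0.22). Probe sets 11715514_a_at (0.09 ± 0.05) and 11749257_a_at (0.04 ± 0.05) gave differences of similar size. The fourth, 11761596_x_at, had means of 8.60 and 8.27, below the background probe set.

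**Figure D3:**
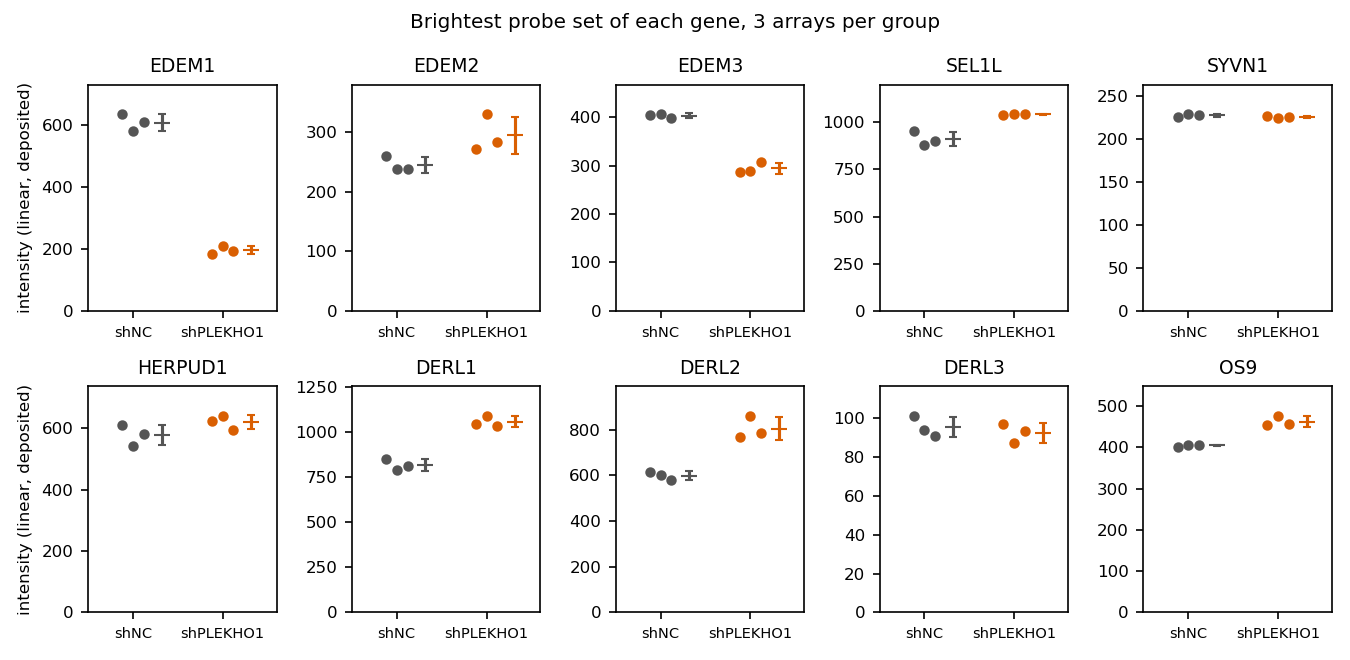
Deposited intensity (linear axes from 0) of the brightest probe set of each of the 10 genes on each array, with the mean ± SD of 3 arrays beside the points. EDEM1 and EDEM3 are lower with shPLEKHO1, EDEM2, SEL1L, DERL1, DERL2 and OS9 are higher, and SYVN1, HERPUD1 and DERL3 overlap.

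Beyond these genes, other ERAD genes went both ways. From a list of 69 further components (other ligases, conjugating enzymes, VCP cofactors, lectins, deubiquitinases), 66 were tested by their brightest probe set. Of these, 23 rose, 18 fell and 25 did not pass, with a median difference of 0.01. Over all genes read this way 17.6% rose and 15.6% fell, 33.2% in all, and the median was 0.01. That share includes dim genes. With the dimmest probe sets left out, 48.2% of the remaining 31491 probe sets were called in either direction. The share over all genes therefore does not show whether a list of mostly bright genes is called more often than usual. FAM8A1, a membrane partner of the SYVN1 complex, was 2.37-fold lower (-1.25 ± 0.06), and its other probe set was at -0.13 (mean of the probe sets -0.69). UBE2G1, a ubiquitin-conjugating enzyme, was 2.03-fold lower (-1.02 ± 0.06), with both of its probe sets down. ERLIN1, which with ERLIN2 forms a membrane scaffold for ERAD of the IP3 receptor, was 1.82-fold lower (-0.86 ± 0.06) and fell in all 3 of its probe sets. FAF1, a VCP cofactor, fell in 3 of 4 probe sets (-0.74 ± 0.06). AUP1, which recruits a conjugating enzyme to the SYVN1 complex, was 1.64-fold higher (0.71 ± 0.05), in 1 of 3 probe sets (mean of the AUP1 probe sets 0.28). These 5 had the smallest p of the list, and their limma adjusted p was at most 3.24e-05.

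A few further components stand next to the members in the pathway and were picked for that role after their values were seen. VCP itself fell (-0.42 ± 0.05, limma adjusted p = 0.000223), in all 4 of its probe sets. Of its adaptors, NPLOC4 did not pass by its brightest probe set (-0.11 ± 0.06, limma adjusted p = 0.251). Of the 4 NPLOC4 probe sets 2 rose, the differences ran from -0.11 to 0.24, and their mean had the opposite sign (0.08, limma adjusted p = 0.269). The adaptor UFD1 rose narrowly (0.17 ± 0.05, limma adjusted p = 0.0429). The UFD1 call was lost in 9 of 14 alternatives, among them leaving out any single array except shNC replicate 1 (limma adjusted p from 0.0760 to 0.129). UBE2J1, the conjugating enzyme that works with SYVN1, rose (0.37 ± 0.05, limma adjusted p = 0.000455), in 2 of its 4 probe sets. The UBE2J1 differences ran from -0.015 to 0.37, and the mean of the probe sets was 0.18 (limma adjusted p = 0.00707). ERLEC1, the second lectin beside OS9, did not pass (0.08 ± 0.05, limma adjusted p = 0.334), and HERPUD2, the paralog of HERPUD1, rose (0.24 ± 0.06, limma adjusted p = 0.0174). HERPUD2 did not pass without shNC replicate 1 (0.0537), shNC replicate 3 (0.0563) or shPLEKHO1 replicate 2 (0.0560).

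Glycan trimming and calnexin cycle genes were tested as a list of 20. Of these 7 fell, 2 rose and 11 did not pass, with a median of -0.08. Of all genes, dim ones included, 15.6% fell and 17.6% rose, with a median of 0.01. With the dimmest probe sets left out, 48.2% of probe sets were called in either direction, so no excess of calls is read from this list. PRKCSH, the beta subunit of glucosidase II, was 1.65-fold lower (-0.72 ± 0.07). CANX, the lectin chaperone calnexin, fell from 4026 ± 62.1 to 3070 ± 61.1 (SD, n = 3; -0.40 ± 0.05) and in all 9 of its probe sets. The mannosidases MAN2A2 (-0.38 ± 0.06, 1 of 4 probe sets, mean of them -0.15) and MAN1B1 (-0.32 ± 0.06, 2 of 4, mean -0.21) fell, and MAN1A2 rose (0.44 ± 0.07, 2 of 3). Without shNC replicate 2, shNC replicate 3, shPLEKHO1 replicate 1 or shPLEKHO1 replicate 2, 1 gene of this list rose instead of 2.

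Among 31 tested sensors, factors and target genes of the UPR, 12 fell, 3 rose and 16 did not pass, with a median of -0.07. Over all genes, dim ones included, 15.6% fell, 17.6% rose and the median was 0.01. Since 48.2% of probe sets were called with the dimmest left out, no excess of calls is read from the UPR list either. MAP3K5, a kinase downstream of the ER stress sensor ERN1, was 2.65-fold lower (-1.40 ± 0.09), and the chaperones and secreted factors CRELD2 (-1.21 ± 0.08), HYOU1 (-1.06 ± 0.05) and MANF (-0.67 ± 0.05) fell. CRELD2 fell in 1 of 2 probe sets, the other being at 0.11 (mean -0.55). HYOU1 fell in 8 of 9, with differences from -1.06 to -0.22 and a mean of -0.60. TRIB3, a pseudokinase induced by ATF4, fell too (-0.66 ± 0.06). The 3 genes of the list that rose were PPP1R15A (0.67 ± 0.08), CREB3L1 (0.23 ± 0.07) and MBTPS2 (0.20 ± 0.05). The transcripts of the factors that drive ERAD genes were looked at for their role, after their values were seen. XBP1 fell (-0.43 ± 0.05, limma adjusted p = 0.000446), as did the ER chaperone HSPA5 (-0.46 ± 0.06, limma adjusted p = 0.000516) in all 6 of its probe sets, while ATF6 (0.08 ± 0.06), ATF6B (-0.10 ± 0.07), ERN1 (0.03 ± 0.06) and EIF2AK3 (0.05 ± 0.07) did not pass. From the other ERAD list, in which 23 genes rose and 18 fell, DNAJB9 and SELENOS were also picked after their values were seen. Both rose, DNAJB9 by 0.83 ± 0.09 (limma adjusted p = 0.000192) and SELENOS by 0.68 ± 0.05 (limma adjusted p = 3.29e-05). The arrays measure neither XBP1 splicing nor the cleavage of ATF6.

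**Figure D4:**
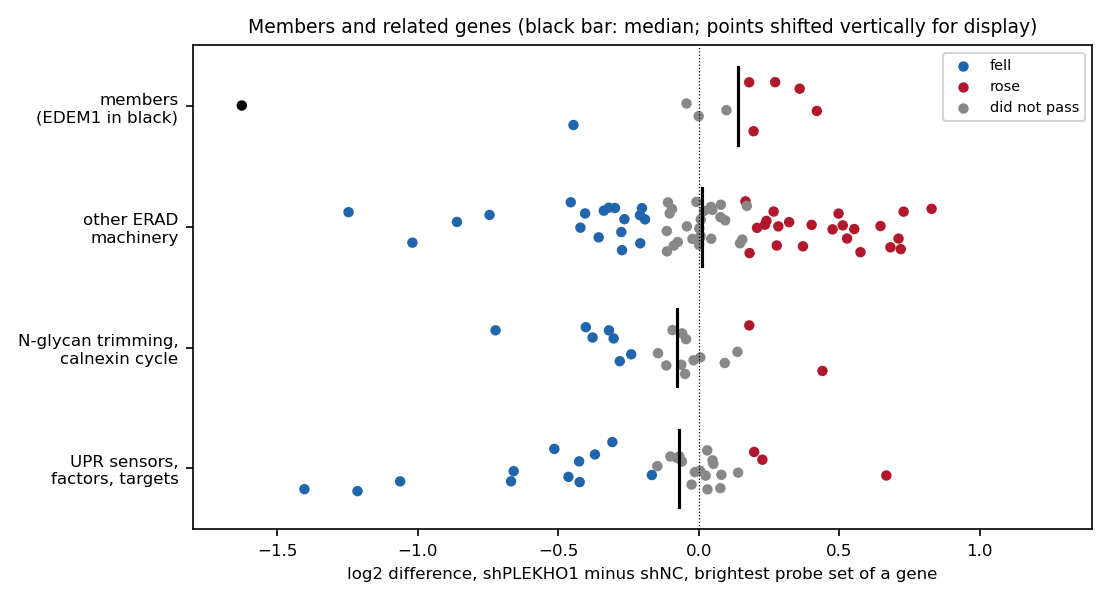
Log2 difference (shPLEKHO1 minus shNC) of each gene by its brightest probe set, for the 10 members, 66 other ERAD genes, 20 glycan trimming and calnexin cycle genes and 31 genes of the unfolded protein response (UPR); black bars mark medians and EDEM1 is black. The medians are 0.14, 0.01, -0.08 and -0.07, and each list holds genes on both sides of 0.

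The 5 genes whose profile over the 6 arrays was most like that of the brightest EDEM1 probe set were named by the root mean square distance between centred log2 values. They were IMPDH1 (0.03), GNG4 (0.05), IMPA2 (0.06), VSIG10 (0.06) and KAT2B (0.07), in log2 units. IMPDH1 went from 1307 ± 49.0 with shNC to 419 ± 16.1 with shPLEKHO1 (SD, n = 3), a difference of -1.63, and KAT2B had the widest difference of the 5, at -1.76 by its brightest probe set. All 3 KAT2B probe sets fell, by differences from -1.76 to -0.27. With 2 groups of arrays, such a distance mostly reads the size of the difference between the groups.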

How the data were processed

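RNA of 786O cells was measured on 6 arrays, 3 per shRNA. Per the submitters' processing notes, Affymetrix Expression Console made the values; version, algorithm and normalization are not given in the sources used. Each deposited value is a linear intensity, from 4.33 to 19770. Log2(intensity + 1) was quantile normalized over all 49395 probe sets, and shPLEKHO1 was set against shNC by lmFit with eBayes (limma 3.58.1, R 4.3.3) for each probe set, without covariates. Benjamini-Hochberg adjustment ran over 44988 probe sets with 1 gene symbol, control probe sets left out. The fit had 4 residual and 4.06 prior degrees of freedom and was tested on simulated data. Symbols were updated through Entrez identifiers with RefSeq (GRCh38.p14): 44961 matched and 27 kept the array's name. Members and lists were chosen with earlier results of these data known. Other lists were read by each gene's brightest probe set; 3 ERAD genes, 1 UPR gene and 1 each of the renal and leukocyte markers are not analysed here. Named are all members, PLEKHO1, the 5 genes of each list with the smallest p among those called, and the 5 nearest to EDEM1 in profile; genes picked otherwise are marked as such. Array number limits the precision. Alternatives were no normalization, median centring, no pseudocount, leaving out the dimmest 30%, array weights, robust fitting with a variance trend, the replicate block, each array left out and, for lists, the mean of a gene's probe sets.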

Additional observations from a re-analysis of the deposited data

How the results depend on the processing

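Every EDEM1 difference kept its direction under all alternatives run for it, and with 1 array left out the brightest probe set ranged from -1.66 to -1.59. The other 4 ranged from -0.61 to -0.52 (11722260_a_at), -0.63 to -0.38 (11722261_at), -0.55 to -0.39 (11751367_a_at) and -0.47 to -0.32 (11751687_a_at). PLEKHO1 ranged from -0.37 to -0.25. Leaving out 1 array gave 2 to 4 partner probe sets that fell and 8 to 11 that rose. For other ERAD genes it gave 13 to 17 falls and 18 to 21 rises, for glycan trimming genes 6 to 7 and 1 to 2, and for UPR genes 11 falls each time and 2 to 3 rises. With the replicate block, 1 glycan trimming gene rose, 3 partner probe sets fell and 9 rose; the calls of SEL1L 11717204_at (adjusted p = 0.0627), OS9 11718990_x_at (0.0526), EDEM3 11749477_a_at (0.0618) and UFD1 (0.106) were lost. Same-numbered arrays did not deviate together (correlations of -0.15, -0.15 and -0.04 for numbers 1 to 3). With 3 arrays per group, such correlations cannot settle whether the numbers pair the arrays. Among the 42 partner probe sets and named genes that had passed, 29 of 572 alternative values lost the call and none changed sign. Many named genes were picked for a small p or a profile like EDEM1's, so this pooled count does not describe the partners. Partner calls were lost for EDEM2 11719374_a_at (2 of 13 alternatives), EDEM3 11743698_at (2 of 13) and 11749477_a_at (5 of 12). They were also lost for SEL1L 11717204_at (5 of 13) and OS9 11718990_x_at (2 of 13) and 11752689_a_at (1 of 13). Of the 287 values of those that had not passed, 12 changed sign and none passed. The cause was not tested. Dim probe sets near background limit what EDEM2, EDEM3, SEL1L and HERPUD1 show beyond their brighter ones.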
